A study of Mus musculus with 12 samples.

Results

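Macrophage identity genes were followed in bulk mouse tumors before and after irradiation (IR). In all, 6 symbols were listed by name and not by their values: Emr1, Cx3cr1, C1qa, C1qb, Cd68 and Cybb. Of these, 5 had a row among the 561 genes with a value on the NanoString nCounter Mouse Immunology Panel, and Cd68 was not analysed here. The 12 samples covered 3 tumor models in C57BL6 mice of 6 to 8 weeks (as labelled), namely the colorectal adenocarcinoma MC38 and the pancreatic ductal adenocarcinomas Pan02 and KPC, grown in wild-type (WT) or in Sirpα-KO mice, written Sirpα-/- below, and each taken either without irradiation or after 8 Gy of X-rays. Every combination was 1 sample that pooled the RNA of mice from 2 time points. The methods give 12 h and 18 h after IR with 2 mice each, without saying when non-irradiated tumors were taken. So the spread between mice is not known and 1 sample per tumor model stands in each of the 4 groups. SIRPα is lacking in every cell type of the Sirpα-/- mice, not in macrophages alone, and its gene was not analysed here, so the genotypes rest on the labels.

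Tumor-associated macrophages are tissue phagocytes that arise largely from blood monocytes and clear dying cells. SIRPα is an inhibitory receptor of macrophages that binds CD47 on other cells and restrains phagocytosis. Emr1 (current symbol Adgre1) encodes the surface receptor most used to identify mouse macrophages. Cx3cr1 encodes the receptor of the chemokine fractalkine and is found on monocytes, many tissue macrophages and some lymphocytes. C1qa and C1qb encode chains of C1q, the molecule that starts the classical complement pathway and tags dying cells for uptake, and in tumors they are made mainly by macrophages. Cybb encodes gp91phox, the catalytic subunit of the phagocyte NADPH oxidase, which neutrophils and monocytes also carry.

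RefSeq promoter windows (GRCm38.p6, 250 bases before to 50 after the gene's start) were matched for 3 of the 5 genes. All 3 are shown, C1qb and Cybb having passed the test for IR in Sirpα-/- tumors and Cx3cr1 not. The log2 fold changes of Cx3cr1 (0.99, standard error 0.75) and C1qb (0.94, standard error 0.29) were nonetheless alike in size. That of Cx3cr1 came mainly from KPC, where its non-irradiated value was the lowest of its sample. In MC38 and Pan02 it was only 0.24 and 0.36. The windows are chr4:136886151-136886450 for C1qb, chrX:9469275-9469574 for Cybb and chr9:120068247-120068546 for Cx3cr1, all on the minus strand. Capitals mark GAGGAA or its reverse complement TTCCTC, the core of sites for PU.1, an ETS factor that directs myeloid genes. No promoter window was matched for C1qa and Emr1.
C1qb promoter: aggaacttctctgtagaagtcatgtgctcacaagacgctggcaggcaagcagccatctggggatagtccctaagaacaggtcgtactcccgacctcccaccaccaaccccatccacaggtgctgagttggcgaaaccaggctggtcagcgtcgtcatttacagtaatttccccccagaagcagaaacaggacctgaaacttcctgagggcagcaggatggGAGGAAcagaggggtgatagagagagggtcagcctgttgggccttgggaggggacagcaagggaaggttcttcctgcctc
Cybb promoter: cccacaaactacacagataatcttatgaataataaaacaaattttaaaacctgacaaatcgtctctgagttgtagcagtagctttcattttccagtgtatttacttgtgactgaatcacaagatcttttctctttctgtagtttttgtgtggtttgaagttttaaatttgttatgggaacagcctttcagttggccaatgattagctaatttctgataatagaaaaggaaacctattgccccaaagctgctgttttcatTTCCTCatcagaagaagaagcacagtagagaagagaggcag
Cx3cr1 promoter: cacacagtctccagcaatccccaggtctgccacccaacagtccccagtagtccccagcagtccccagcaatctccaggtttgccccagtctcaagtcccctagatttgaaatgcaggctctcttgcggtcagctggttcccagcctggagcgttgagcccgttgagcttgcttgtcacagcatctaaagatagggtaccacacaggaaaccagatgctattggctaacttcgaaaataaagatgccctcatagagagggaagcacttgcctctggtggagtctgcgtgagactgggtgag
The C1qb window held 1 match, starting at base 221 of the window, the Cybb window 1 match, starting at base 260, and the Cx3cr1 window 0. The same letters occurred on either strand in 28.3% of all 32851 promoter windows of this length. Only these exact letters were searched, and neither a match nor the lack of one is evidence on binding.

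The values are normalized counts, that is, counts of the barcoded probes after the authors had deducted the background of negative controls and applied a factor from positive controls. The counts behind them (net counts) could be recovered from the spacing of the low values in each sample. The non-irradiated KPC samples held only 21576 (WT) and 12292 (Sirpα-/-) net counts, against 79210 to 403440 in the other 10 samples, so the floor of 3 counts equals 11.4 and 19.5 normalized counts in them. The geometric mean of the 14 reference genes of the panel was 335 to 456 in KPC and 625 to 922 in the other models, so deposited values in KPC are on a lower scale. The 20th percentile of the genes was 17.8 to 49.5 in irradiated Sirpα-/- tumors and at most 6.48 in the other 9 samples. The lowest value of any of the 5 genes in irradiated Sirpα-/- tumors was 75.7 (Cx3cr1, KPC). In Sirpα-/- Pan02 tumors Cx3cr1 went from 145 to 190 after IR, while the 20th percentile went from 6.2 to 49.5. In Sirpα-/- MC38 tumors Cx3cr1 went from 103 to 123, while the 20th percentile went from 3.77 to 20.5. The part of the raised level in these rises of Cx3cr1 was not tested. Probes differ in efficiency, so a gene is compared between samples and never with another gene's level.

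Levels were described for 12 macrophage markers, of which 10 were measured. The 5 genes are among the 10, so these levels are no independent check of the macrophage label. None of the 10 was at the lowest value of its sample except Cx3cr1 and Itgam in non-irradiated Sirpα-/- KPC tumors, at 6.48. Their summed level was 1168 to 6217 normalized counts in the 3 WT samples without IR, 3401 to 7792 in irradiated WT, 960 to 3432 in Sirpα-/- without IR and 2536 to 9197 in irradiated Sirpα-/- tumors. In bulk tumors a lower number of macrophages and less RNA per macrophage cannot be told apart, and all levels below are of the whole tumor.

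Emr1 was highest in irradiated Sirpα-/- MC38 tumors. In MC38 it stood at 185 normalized counts in WT and 136 in Sirpα-/- mice without IR, and at 287 and 876 after IR. In Pan02 the values were 482 in WT and 148 in Sirpα-/- mice without IR, and 504 and 366 after IR. In KPC they were 60.7 and 77.8 without IR, and 224 and 141 after IR. In each tumor model the irradiated sample was above the non-irradiated sample of the same genotype, but in Pan02 WT tumors only by 0.06 ± 0.15 on the log2 scale, a sign that turned with scaling by reference genes (−0.15) or by a median ratio to the gene means (−0.05). By group, Emr1 averaged 121 ± 37.5 (SD, n = 3 tumor models) in Sirpα-/- and 243 ± 216 in WT tumors without IR, and 338 ± 147 in WT and 461 ± 376.5 in Sirpα-/- tumors after IR. No neighbours in this order passed the tests below.

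Cx3cr1 followed another course. In MC38 it was at 143 normalized counts in WT and 103 in Sirpα-/- mice without IR, and at 41.4 and 123 after IR. In Pan02 it was at 276 and 145 without IR, and at 493, the highest of the 12 samples, and 190 after IR. In KPC it was at 7.58 and 6.48 without IR, which are 2 net counts and 1, the latter the lowest value of its sample, and at 149 and 75.7 after IR. Irradiated WT MC38 tumors thus held less Cx3cr1 than any other sample outside non-irradiated KPC. By group, Cx3cr1 averaged 84.8 ± 71.1 (SD, n = 3) in Sirpα-/- tumors without IR, 129 ± 57.3 in Sirpα-/- tumors after IR, 142 ± 134 in WT without IR and 228 ± 236 in WT after IR, and the ranges of all 4 groups overlapped.

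The C1q genes had their highest values of the 12 samples in irradiated Sirpα-/- MC38 tumors. C1qa in MC38 was at 967 normalized counts in WT and 789 in Sirpα-/- mice without IR, and at 1093 and 3262 after IR. In Pan02 it was at 1190 and 733 without IR, and at 2193 and 1840 after IR. In KPC it was at 228 and 149 without IR, and at 898 and 846 after IR. All 6 irradiated samples lay above the non-irradiated sample of the same tumor model and genotype. C1qa ran from 149 to 789 without IR and from 846 to 3262 after in Sirpα-/- mice. In WT mice it ran from 228 to 1190 and from 898 to 2193. How many panel genes had separate ranges was not counted. The difference of the IR effect between genotypes, tested below, did not pass for C1qa (adjusted p = 0.452 from limma).

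C1qb in MC38 was at 1154 normalized counts in WT and 1148 in Sirpα-/- mice without IR, and at 2071 and 2918 after IR. In Pan02 it was at 2343 and 1403 without IR, and at 2605 and 2181 after IR. In KPC it was at 436 and 460 without IR, and at 1162 and 845 after IR. It was also higher after IR in each of the 6 pairs of samples, although in Pan02 WT tumors by only 0.15 ± 0.07 on the log2 scale (−0.06 with scaling by reference genes), and its ranges with and without IR overlapped in both genotypes. C1qa averaged 557 ± 354 (SD, n = 3) in Sirpα-/- and 795 ± 504 in WT tumors without IR, and 1395 ± 698 in WT and 1983 ± 1214 in Sirpα-/- tumors after IR. For C1qb the same order of groups gave 1004 ± 488, 1311 ± 963, 1946 ± 730 and 1981 ± 1051.

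Cybb in MC38 was at 200 normalized counts in WT and 163 in Sirpα-/- mice without IR, and at 253 and 561 after IR. In Pan02 it was at 654, its highest value of the 12 samples, and 212 without IR, and at 578 and 499 after IR. In KPC it was at 37.9 and 45.4 without IR, which are only 10 and 7 net counts, and at 328 and 216 after IR. In Sirpα-/- mice Cybb ran from 45.4 to 212 without IR and from 216 to 561 after, with a narrow margin between KPC after IR and Pan02 without IR. The share of panel genes with such separate ranges was not counted. Group means were 140 ± 85.7 (SD, n = 3) in Sirpα-/- and 297 ± 319 in WT tumors without IR, and 387 ± 170 in WT and 425 ± 184 in Sirpα-/- tumors after IR.

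**Figure D1:**
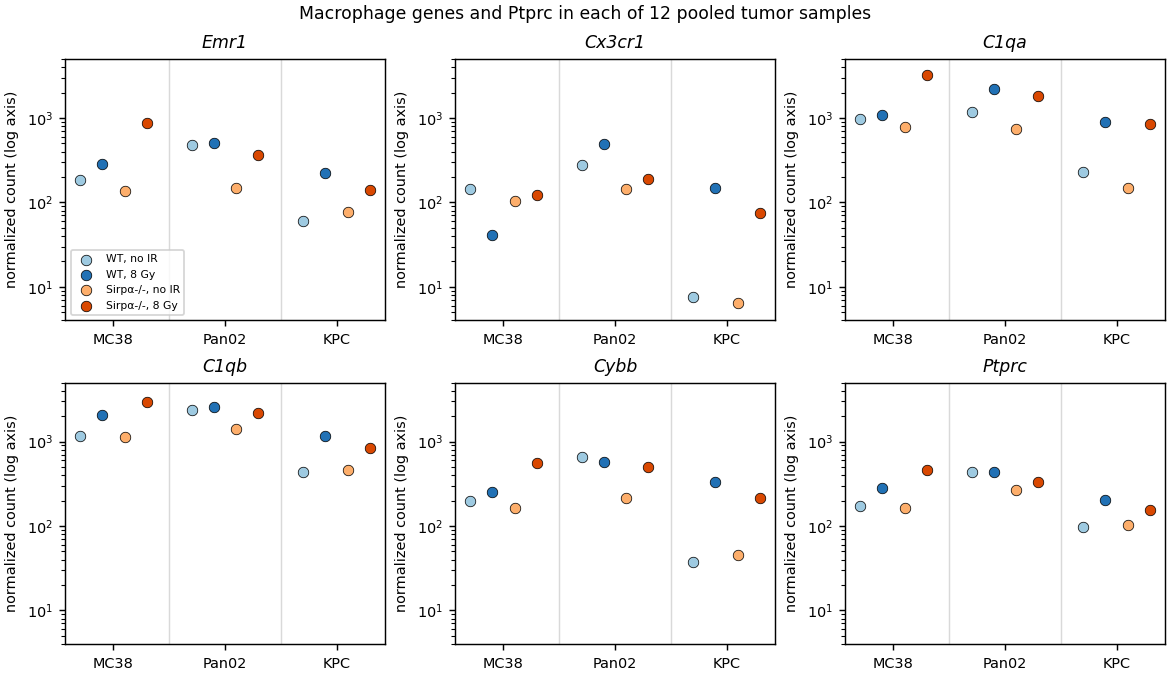
Normalized counts (log axis) of the 5 macrophage genes and of the leukocyte gene Ptprc in the 12 samples, 1 point per pooled sample, grouped by tumor model and colored by genotype and IR. Emr1, C1qa and C1qb peak in irradiated Sirpα-/- MC38 tumors (876, 3262 and 2918), while Cx3cr1 and Cybb peak in Pan02 WT tumors (493 and 654).

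Whether IR changed the 5 genes in Sirpα-/- tumors was asked across the 3 tumor models. C1qa, Cybb, Emr1 and C1qb rose, and each was higher after IR in 3 of 3 tumor models. The log2 fold change was 1.93 for C1qa (adjusted p = 0.00788 from limma, standard error 0.39), with Cybb at 1.65 (standard error 0.52, adjusted p = 0.0262 from limma), Emr1 at 1.54 (standard error 0.48, adjusted p = 0.0251 from limma) and C1qb at 0.94 (standard error 0.29, adjusted p = 0.0245 from limma). Cx3cr1 did not pass, at 0.99 (standard error 0.75, adjusted p = 0.295 from limma). Its value came mainly from KPC, where the non-irradiated sample held 1 net count, with only 0.24 in MC38 and 0.36 in Pan02. These are changes on the log2(value + 10) scale, which understates the change of low values, and the 3 tumor models stand as replicates, so a p-value here refers to variation from model to model, with mice unreplicated.

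The panel as a whole moved the same way. Of the 461 genes tested, 198 were higher (43.0%) and 1 was lower in irradiated than in non-irradiated Sirpα-/- tumors, and the median log2 fold change was 0.91, against 1.54 over the 5 macrophage genes. C1qb, at 0.94, therefore lay close to the median of all genes. Median ratio scaling lowered the median of all genes to 0.35, with 42 genes higher and 7 lower, and only C1qa passed, as it did when each sample's 20th percentile was subtracted, an alternative chosen after the data were seen. Without the Pan02 samples none of the 5 passed, nor did any of 363 genes, and without the KPC samples none of the 5 and 1 of 460 genes did, while the log2 fold changes were 2.23 and 1.68 for C1qa, 1.69 and 1.93 for Emr1, 1.87 and 1.46 for Cybb and 1.10 and 0.985 for C1qb. None of the 5 passed either in edgeR on the recovered net counts, where 23 of 461 genes were higher and 30 lower and 1 of the 5 had an unadjusted p under 0.05.

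In WT tumors none of the 5 genes passed the test for IR in limma (0 of 461 genes, 0%), although 2 of them and 76 of all genes had an unadjusted p under 0.05, and edgeR called 0 genes as well, with 0 of the 5 and 16 of all genes at an unadjusted p under 0.05. The log2 fold changes were 0.996 for C1qa (adjusted p = 0.276 from limma), 0.99 for Cybb (0.317), 0.80 for Emr1 (0.383), 0.79 for C1qb (0.276) and 0.80 for Cx3cr1 (0.594), over a median of 0.41 for all genes. The Cx3cr1 value was decided by KPC and was −0.23 without the non-irradiated KPC samples. C1qa, C1qb and Emr1 were higher in 3 of 3 tumor models as deposited, and Cybb and Cx3cr1 in 2 of 3.

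The difference of the IR effect between genotypes was tested directly and passed for none of the 5 genes, nor for any of the 461 (0%), in limma or in edgeR, with 0 of the 5 and 74 of all genes at an unadjusted p under 0.05 in limma and 0 and 52 in edgeR. It was 0.93 (standard error 0.55) for C1qa, more positive in Sirpα-/- mice in 3 of 3 tumor models, 0.75 (standard error 0.68) for Emr1, 0.66 (standard error 0.73) for Cybb, 0.19 (standard error 1.06) for Cx3cr1 and 0.15 (standard error 0.41) for C1qb, with adjusted p from limma of 0.452 to 0.96. The passing of 4 genes in Sirpα-/- and of none in WT tumors is therefore not shown to be a difference between the genotypes.

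**Figure D2:**
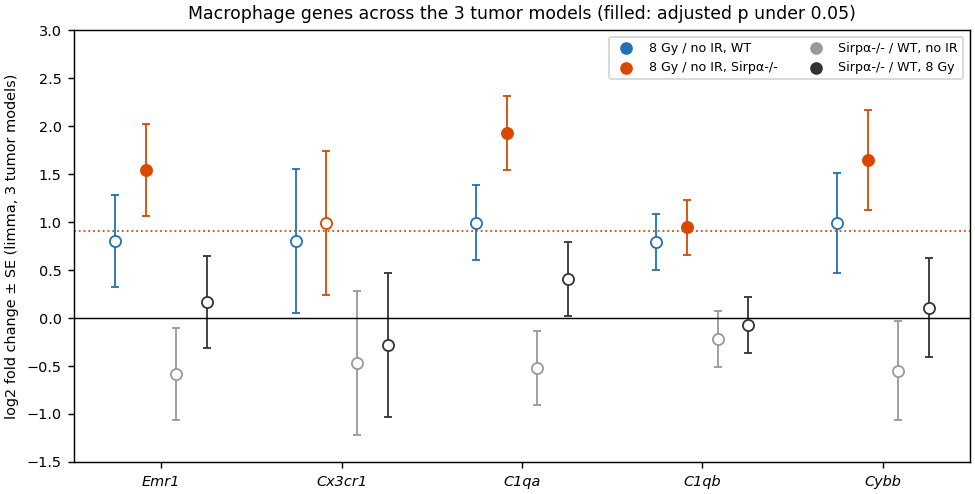
Log2 fold changes with standard errors from limma over 3 tumor models for the 5 macrophage genes in 4 contrasts, filled where the adjusted p was under 0.05, with the median of all 461 genes for IR in Sirpα-/- tumors (0.91) as a dotted line. The filled points are C1qa, Cybb, Emr1 and C1qb after IR in Sirpα-/- tumors.

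Between genotypes at the same treatment, none of the 5 genes passed in limma. Without IR the log2 fold changes of Sirpα-/- over WT tumors ran from −0.58 (Emr1) to −0.22 (C1qb), all below 0, with adjusted p = 0.967 from limma for each, and 0 of 461 genes passed (0%), 0 of the 5 and 12 of all genes having an unadjusted p under 0.05 (0 and 13 in edgeR, which called none). After IR they ran from −0.28 (Cx3cr1) to 0.41 (C1qa), with adjusted p from limma of 0.57 to 0.927, while 76 of the 461 genes passed (16.5%), 73 of them higher and 3 lower. The balance was 63 higher and 35 lower in edgeR, 3 and 1 with the 20th percentile subtracted, and 0 and 1 among genes with a mean of at least 200. None of the 5 had an unadjusted p under 0.05 in this comparison, in limma or in edgeR.

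Within a tumor model, 1 sample was set against 1 sample, with no test. Log2 ratios of (normalized count + 10) are given with ± for counting error only (95%), and a gene was counted at 2-fold or more in either direction where its larger value was at least 50. All counting errors here were taken from net counts and leave out the error of the deducted background, so they are too small at low counts. After IR in MC38 tumors of Sirpα-/- mice, 36.2% of all 337 genes considered were at 2-fold, 118 higher and 4 lower. Of the 5 genes, 4 were at least 2-fold higher, with Emr1 at 2.599 ± 0.25, C1qa at 2.03 ± 0.11, Cybb at 1.72 ± 0.24 and C1qb at 1.34 ± 0.10. Cx3cr1 was at 0.24 ± 0.35, and at −0.35 with scaling by the median ratio. In MC38 tumors of WT mice, where 31.4% of 312 genes were at 2-fold, only Cx3cr1 was counted and it was lower, at −1.58 ± 0.48. No other gene was at least 2-fold lower there, and 97 were higher. The other macrophage genes were at 0.18 ± 0.13 (C1qa), 0.33 ± 0.27 (Cybb), 0.60 ± 0.26 (Emr1) and 0.84 ± 0.11 (C1qb), of which C1qa and Cybb turned to −0.37 and −0.19 with scaling by the median ratio.

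After IR in Pan02 tumors of Sirpα-/- mice, 41.5% of 448 genes were at 2-fold, 183 higher and 3 lower. Of the 5 genes, 3 were at least 2-fold higher, namely C1qa (1.32 ± 0.19), Emr1 (1.25 ± 0.41) and Cybb (1.20 ± 0.35). C1qb (0.63 ± 0.15) and Cx3cr1 (0.36 ± 0.46) were not, and with scaling by the median ratio none of the 5 was. In WT mice none of the 5 was at 2-fold, against 4.42% of 317 genes, with C1qa at 0.88 ± 0.08 and Cx3cr1 at 0.82 ± 0.17 the most changed and Cybb at −0.17 ± 0.13.

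In KPC tumors of WT mice, all 5 genes were at least 2-fold higher after IR, and 3 were with scaling by the median ratio. Of all 267 genes considered, 48.3% were at 2-fold, 110 higher and 19 lower. Cybb was at 2.82 ± 0.72, C1qa at 1.93 ± 0.36, Emr1 at 1.73 ± 0.62 and C1qb at 1.39 ± 0.26. For Cx3cr1 the ratio of the values was 19.6, with a 95% counting interval of 5.38 to 163, since the non-irradiated sample held 2 counts. In Sirpα-/- mice, 49.3% of 274 genes were at 2-fold, 116 higher and 19 lower. Of the 5 genes, 3 were at least 2-fold higher, with C1qa at 2.43 ± 0.56 and Cybb at 2.03 ± 0.89. Cx3cr1 was at least 3.89-fold higher, taking 3 counts as the floor of the non-irradiated sample, where it lay at the lowest value, shared by 267 genes, and Emr1 (0.78 ± 0.74) and C1qb (0.86 ± 0.34) stayed under 2-fold.

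The difference between genotypes after IR did not have the same direction in the 3 tumor models. In irradiated MC38, 4 of the 5 genes were at least 2-fold higher in Sirpα-/- than in WT mice. Of all 346 genes considered, 15.6% were at 2-fold, 30 higher and 24 lower. Emr1 was at 1.58 ± 0.22, C1qa at 1.57 ± 0.11, Cx3cr1 at 1.37 ± 0.49 and Cybb at 1.12 ± 0.24, and C1qb was at 0.49 ± 0.09. In irradiated Pan02 the values were −1.33 ± 0.32 for Cx3cr1, −0.45 ± 0.25 for Emr1, −0.26 ± 0.11 for C1qb, −0.25 ± 0.12 for C1qa and −0.21 ± 0.22 for Cybb, so that 1 gene was at least 2-fold lower, while 33.7% of 448 genes were at 2-fold and nearly all of these (146 of 151) were higher. The last 3 values turned just above 0 with scaling by reference genes, at 0.02, 0.02 and 0.06. In irradiated KPC none of the 5 was at 2-fold, against 15.2% of 276 genes, with Cx3cr1 at −0.89 ± 0.27, Emr1 at −0.63 ± 0.22, Cybb at −0.58 ± 0.18, C1qb at −0.46 ± 0.10 and C1qa at −0.09 ± 0.10, the last of which turned to 0.09 and 0.18 under reference gene and median ratio scaling. Emr1 and Cx3cr1 were thus higher in Sirpα-/- mice in MC38 and lower in Pan02 and KPC under each scaling. For Emr1 in Pan02 the value under reference gene scaling was only −0.18, smaller than its counting error as deposited (0.25).

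Without IR, Sirpα-/- Pan02 tumors held less of all 5 genes than WT tumors under each scaling. Emr1 was at −1.64 ± 0.36 and Cybb at −1.58 ± 0.30, both at least 2-fold lower, followed by Cx3cr1 (−0.88 ± 0.37), C1qb (−0.74 ± 0.13) and C1qa (−0.69 ± 0.17). Of 316 genes considered, 11.1% were at 2-fold, 5 higher and 30 lower. In MC38 (9.19% of 272 genes at 2-fold) the 5 genes lay between −0.44 ± 0.33 (Cx3cr1) and −0.01 ± 0.11 (C1qb, 0.13 with reference genes), with none at 2-fold. In KPC (9.26% of 216 genes) only Emr1, C1qa and C1qb reached 50 in either sample, and each differed by less than 2-fold and less than its counting error.

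**Figure D3:**
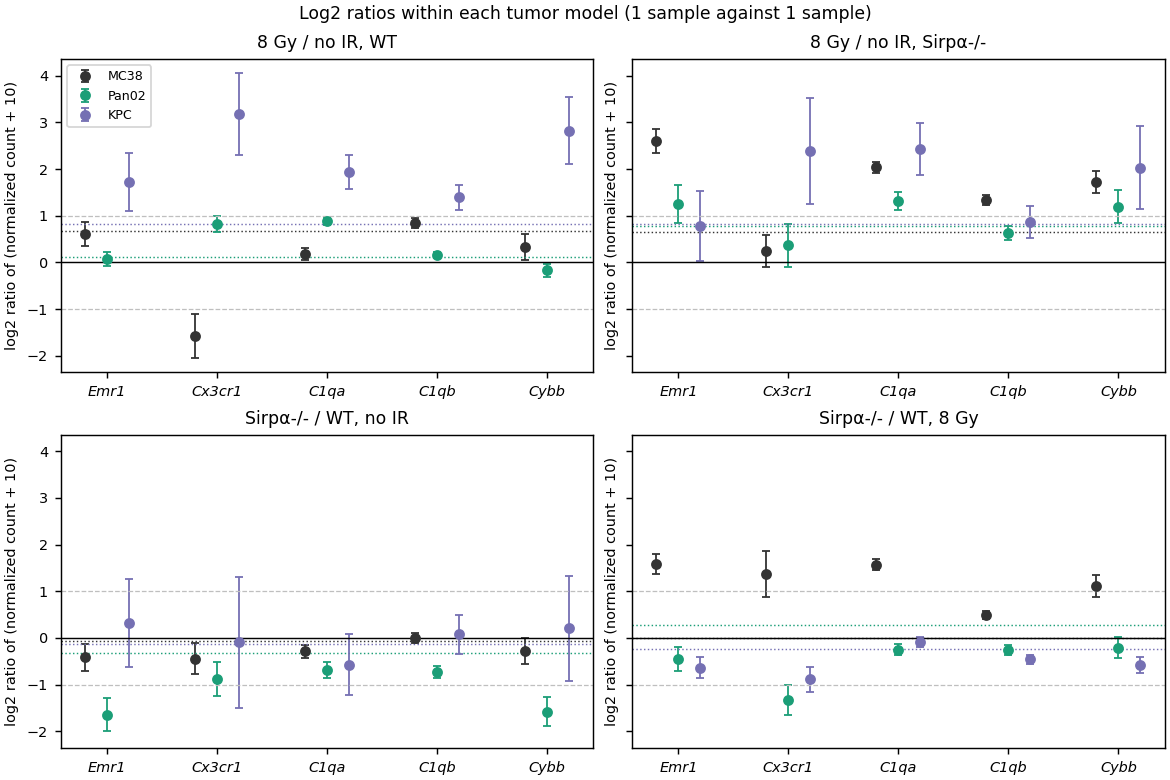
Log2 ratios of (normalized count + 10) within each tumor model for the 5 macrophage genes, with 95% counting error, in 4 comparisons of 1 sample with 1 sample. Dashed lines mark 2-fold and dotted lines the median of all genes considered in that tumor model. In the comparison of irradiated genotypes MC38 lies above 0 for all 5 genes and, as deposited, Pan02 and KPC lie below, though C1qa, C1qb and Cybb of Pan02 and C1qa of KPC turn with scaling by reference genes.

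The genes did not move as a block. A ratio of 2 genes in the same sample does not depend on how the sample was scaled, and only its differences between samples are read. The log2 ratio of C1qa to C1qb rose after IR in Sirpα-/- tumors of all 3 models, by 0.70 ± 0.15 in MC38 (from −0.54 to 0.16), by 0.69 ± 0.25 in Pan02 and by 1.63 ± 0.69 in KPC. In WT mice it rose by 0.73 ± 0.11 in Pan02 and by 0.57 ± 0.46 in KPC, and fell by 0.67 ± 0.17 in MC38. C1qa thus gained on C1qb in 5 of the 6 pairs of samples.

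The log2 ratio of Cx3cr1 to Emr1 fell by 2.42 ± 0.64 in WT and by 2.43 ± 0.46 in Sirpα-/- MC38 tumors after IR, to similar levels (−2.79 and −2.83). These similar falls came from different values, since in WT tumors Cx3cr1 went from 143 to 41.4 and Emr1 from 185 to 287, whereas in Sirpα-/- tumors Cx3cr1 went from 103 to 123 and Emr1 from 136 to 876. In Pan02 the ratio rose by 0.77 ± 0.23 in WT and fell by 0.92 ± 0.65 in Sirpα-/- mice. In KPC it is given only after IR, at −0.59 in WT and −0.90 in Sirpα-/- mice, because Cx3cr1 was at or under the floor without IR. The log2 ratio of Cybb to Emr1 fell by 0.90 ± 0.37 after IR in Sirpα-/- MC38 tumors and rose by 1.39 ± 1.37 in Sirpα-/- KPC tumors, the latter on few counts.

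**Figure D4:**
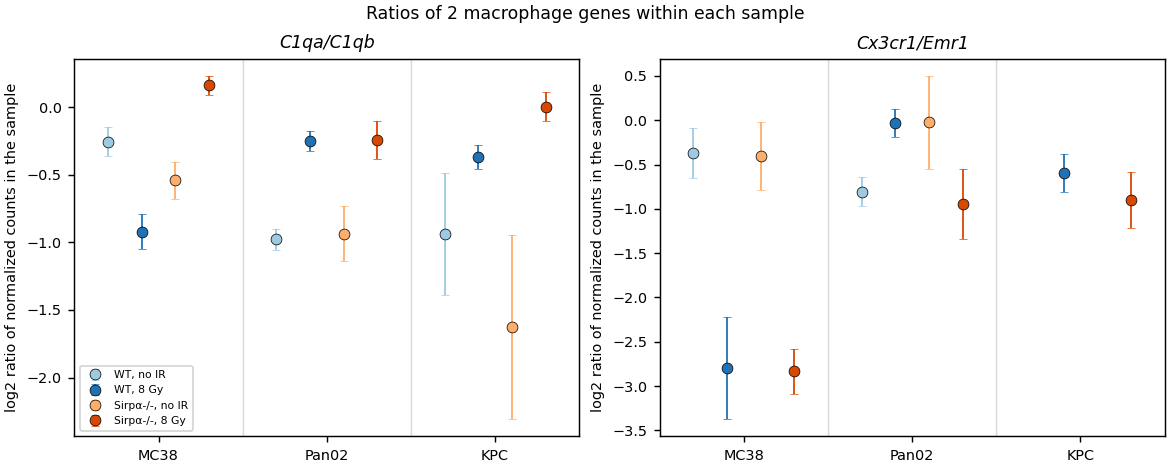
Log2 ratio of C1qa to C1qb (left) and of Cx3cr1 to Emr1 (right) within each sample, with 95% counting error, 1 point per pooled sample, Cx3cr1 to Emr1 of non-irradiated KPC left out. C1qa to C1qb is higher after IR in 5 of 6 pairs, and Cx3cr1 to Emr1 falls to −2.79 and −2.83 in irradiated MC38 tumors.

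Ptprc encodes CD45, which all leukocytes carry, and it was at 98.6 to 464 normalized counts in the 12 samples. Its log2 fold change after IR in Sirpα-/- tumors was 0.75 (standard error 0.33, adjusted p = 0.0878 from limma). C1qb stayed near a fixed ratio to it, at log2 2.15 to 2.88 in all 12 samples, while the ratio of C1qa to Ptprc ran from 0.52 to 2.81. Relative to Ptprc, C1qa rose after IR in Sirpα-/- tumors of each model, by 0.56 ± 0.28 in MC38, 1.03 ± 0.41 in Pan02 and 1.94 ± 0.94 in KPC. In WT tumors C1qa also rose relative to Ptprc in Pan02 (0.89 ± 0.18) and KPC (0.95 ± 0.68), but was at −0.51 ± 0.31 in MC38. Emr1 rose relative to Ptprc in Sirpα-/- MC38 (1.20 ± 0.37) and Pan02 (1.02 ± 0.57), and was at 0.29 ± 1.11 in KPC. In WT tumors Emr1 was at −0.06 ± 0.39 in MC38, 0.07 ± 0.22 in Pan02 and 0.86 ± 0.92 in KPC.

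The 5 genes together held 0.927% to 3.32% of all net counts of a sample. The share was 3.32% (95% Wilson interval 3.25 to 3.39, counting error only) in irradiated Sirpα-/- MC38 tumors, the highest of the 12 samples, against 1.36% (1.31 to 1.42) without IR. In WT MC38 tumors it was 1.53% after IR and 1.58% without, intervals that overlap, whereas as a percentage of the counts of the 14 reference genes it was 6.44 and 4.56. In Pan02 the share was 2.68% after IR and 2.08% without in WT mice, and 2.24% and 1.34% in Sirpα-/- mice. In KPC it was 2.28% and 0.941% in WT, and 1.93% and 0.927% in Sirpα-/- mice.

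**Figure D5:**
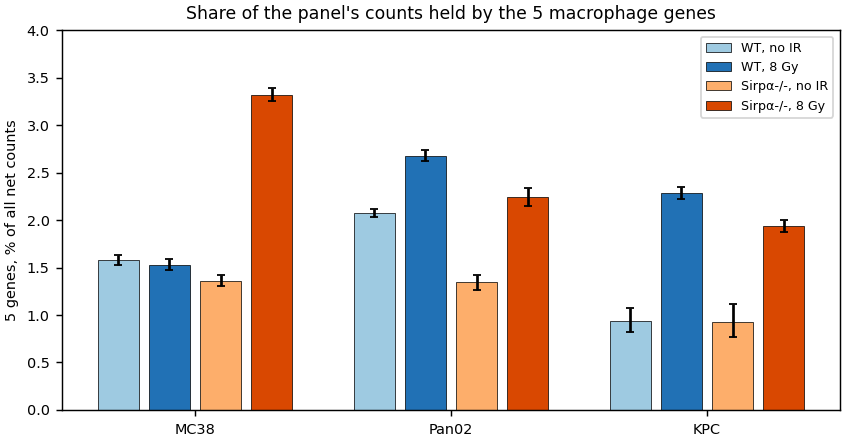
Summed net counts of the 5 macrophage genes as a percentage of all net counts of each sample, with 95% Wilson intervals (counting error only). The share is higher after IR in 5 of 6 pairs of samples, the exception being WT MC38 tumors (1.53% and 1.58%).

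Between tumor models, over 4 samples each, none of the 5 genes differed between MC38 and Pan02 in limma, where 26.9% of the genes did, and none had an unadjusted p under 0.05 there or in edgeR. With scaling by reference genes 3 of the 5 had an unadjusted p under 0.05 in limma, as had 196 of 454 genes, and none of the 5 passed. Cx3cr1 came closest, at −1.31 (standard error 0.65, adjusted p = 0.155 from limma), lower in MC38 at each of the 4 combinations of genotype and IR, and of the alternatives run it passed only with both non-irradiated KPC samples left out of the fit. Against KPC, 4 genes were higher in MC38 (44.9% of all genes were), with log2 fold changes of 1.19 (Cybb) to 1.65 (C1qa), and all 5 were higher in Pan02 (67.0% of all genes), from 1.52 (Emr1) to 2.54 (Cx3cr1). Under reference gene scaling, under median ratio scaling and in edgeR, none of the 5 passed in either comparison with KPC. For Pan02, 4, 1 and 0 of the 5 then had an unadjusted p under 0.05, beside 122, 79 and 49 of all genes, with 0 genes passing. For MC38 these counts were 0, 0 and 1 of the 5, beside 133, 147 and 149 of all genes. Scaling by reference genes moved the median log2 difference of all genes from 0.72 to −0.27 for MC38 and from 1.03 to 0.27 for Pan02, each against KPC.

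Other genes of the same cells and pathways were taken from lists chosen by function. Of 15 tested genes of macrophages and phagocytes beyond the 5, 8 rose after IR in Sirpα-/- tumors and none fell, where 43.0% of all genes tested rose (median log2 fold change 1.11, against 0.91 over all genes). The largest were Cd36, a scavenger receptor (2.11, adjusted p = 0.0124 from limma), Tlr2, a sensor of bacterial lipoproteins (1.95, 0.0058), Fcer1g, the signalling chain of Fc receptors (1.78, 0.00781), and Fcgr1, the high-affinity IgG receptor (1.54, 0.0243). Csf1r, the receptor of the growth factor on which macrophages depend, did not pass (0.51, adjusted p = 0.152), nor did Cd163 (0.08, adjusted p = 0.942) and Itgam (1.11, adjusted p = 0.0578). In the WT comparison of IR and in both comparisons of genotypes, none of the 15 passed in limma. Between tumor models, 9 of the 15 were higher in MC38 and 12 in Pan02 than in KPC, where 44.9% and 67.0% of all genes were. The calls of Pan02 against KPC were all lost with reference genes, with the median ratio and in edgeR, as 0 genes of the panel then passed at an adjusted p under 0.05, with 122, 79 and 49 at an unadjusted p under 0.05. Fcgr2b, an inhibitory IgG receptor, and Csf1r were lower in MC38 than in Pan02 (log2 fold changes −1.23 and −1.12). Of genes that control the lineage, Irf8 (1.69, adjusted p = 0.0124) and Cebpb (1.47, adjusted p = 0.0315), both transcription factors of myeloid cells, rose, and the growth factor gene Csf1 was at 0.35 (adjusted p = 0.259), all from limma.

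None of the 7 tested partners of C1q, genes of the complement cascade and C1qbp, passed after IR in Sirpα-/- tumors (median 0.41). Of all genes tested, 43.0% were higher there. C1ra, a protease of the C1 complex, was at 0.41 (adjusted p = 0.319 from limma), and C1s, the protease it activates, at −0.30 (adjusted p = 0.516). Of these genes, C3, C4a, C1s and C1ra were lower in MC38 than in Pan02 tumors with log2 fold changes of −2.86 (C4a) to −1.36 (C1ra), with adjusted p from limma of 1.21e-04 to 0.00525, and C1qbp, which encodes a C1q-binding protein of mitochondria and the cell surface, was higher (0.70, adjusted p = 0.0253). Ncf4, a cytosolic subunit of the oxidase that gp91phox belongs to, was at 0.22 after IR in Sirpα-/- tumors (adjusted p = 0.515 from limma), against 1.65 for Cybb. Cx3cl1, the ligand of Cx3cr1, was at 0.99 (adjusted p = 0.0815 from limma).

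Genes of some other cell types were called higher beside the macrophage genes. After IR in Sirpα-/- tumors, 4 of 4 tested B cell, 5 of 5 neutrophil, 3 of 4 dendritic cell, 4 of 6 T cell, 0 of 3 NK cell and 1 of 4 endothelial genes were higher in limma, where 43.0% of all genes were, and edgeR called 23 genes of the panel higher and 30 lower. The summed level of 6 B cell genes was 23.2 to 38.9 normalized counts without and 117 to 348 after IR in these mice, that of 6 neutrophil genes 50.6 to 1633 and 216 to 2974, that of 10 T cell genes 116 to 541 and 263 to 926, and that of 4 dendritic cell genes 32.4 to 122 and 153 to 464. Neutrophils also carry Cybb, and their part in its rise was not tested. The neutrophil sum without and after IR was 50.6 and 216 in MC38, where Cybb stood at 163 and 561, 1633 and 2974 in Pan02, where it stood at 212 and 499, and 84.3 and 1329 in KPC, where it stood at 45.4 and 216. At the lowest value of their sample were 12 of the 18 B cell values without IR and 0 after, 8 and 3 of 18 neutrophil values, 9 and 0 of 30 T cell values and 5 and 0 of 12 dendritic cell values. In the same irradiated Sirpα-/- samples the 20th percentile of the genes was raised, to 20.5 in MC38, 49.5 in Pan02 and 17.8 in KPC. The 6 B cell genes summed to 117, 348 and 123 there, so on average they lay near this raised level. The part of the raised level in these counts was not tested.

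The genes whose pattern over the 12 samples was most like each of the 5 are given as a description, since the genes of a sample share its scale and depth. Among 222 other genes with a mean of at least 100 normalized counts, Ptprc and Ly86 were among the 3 most like Emr1 (Pearson r = 0.95 for both). C1qa was nearest to Fcer1g (0.99), then Tapbp and Tmem173 (0.95 each). C1qb was nearest to Ptprc and Msr1 (both 0.97) and Tyrobp (0.96). Cybb was nearest to Ly86, which encodes the LPS co-receptor component MD-1 (0.98), Fcgr3 (0.98) and Lair1 (0.97). Cx3cr1 was nearest to Igf2r, Fcgr2b and Rela (0.94 each), and with scaling by reference genes Igf2r remained its nearest gene (0.925) while Rela fell to rank 34. Cx3cr1 and Igf2r both had a lowest value of 6.48, the lowest value of non-irradiated Sirpα-/- KPC tumors, so the floor enters their correlation. With the same scaling Ptprc fell to rank 6 for Emr1 and 7 for C1qb, and Tapbp to 14 for C1qa. Fcer1g for C1qa and Ly86 for Cybb kept rank 1. Among the 5 genes themselves r ran from 0.73 (Cx3cr1 and Emr1) to 0.95 (C1qb and Emr1), and from 0.57 to 0.92 with scaling by reference genes.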

How the data were processed

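RNA of bulk tumors was measured by the authors with the NanoString Mouse Immunology Panel (nCounter SPRINT Profiler, nSolver 2.6). The deposited signal values are normalized counts, from which negative-control background had been deducted and to which a positive-control factor had been applied. Whether reference genes entered this step is not given in the sources used. All 12 columns matched a sample (0 unmapped). Net counts were recovered from the spacing of low values. The 461 genes that reached 50 in any sample were tested with limma 3.58.1 (R 4.3.3, variance trend) on log2(value + 10), with 4 groups and tumor model as a block. The threshold was a Benjamini-Hochberg adjusted p under 0.05 over all genes. A test on simulated data came first, with the spread of each gene capped and no raised background, so it does not vouch for these values. The limma test replaces the methods' t-test, an alternative here. Others were scaling (reference genes, median ratio), pseudocounts 1 and 50, filters, no block, edgeR 4.0.16 on net counts, and samples or tumor models left out. Subtraction of the 20th percentile was chosen after the data were seen. Members and lists were chosen with earlier results of these data known. Genes named are the members, up to 4 called genes per list and contrast with the largest change, the 3 most correlated genes per member (mean at least 100) and Ptprc. Other genes named, which did not pass, were chosen after their values were seen. Some genes that this rule names are not reported here.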

Additional observations from a re-analysis of the deposited data

Results flagged for a closer look

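These values are differences between tumor models that ran in opposite directions, each past its counting error. With 1 pooled sample per condition the differences were not tested, and they are on the log2 scale. After IR in WT mice, Cx3cr1 went up in Pan02 and down in MC38, a difference of 2.39, with KPC left out because its non-irradiated value lay under the floor of 3 counts. Cybb went up in MC38 and KPC and down in Pan02 (1.75), but its MC38 value turned to −0.19 with scaling by the median ratio. The ratio of C1qa to C1qb went up in Pan02 and KPC and down in MC38 (1.31), that of Cx3cr1 to Emr1 up in Pan02 and down in MC38 (3.20), and that of Cybb to Emr1 up in KPC and down in Pan02 (1.47). In Sirpα-/- mice the ratio of Cybb to Emr1 went up in KPC and down in MC38 (2.30). The rises of this ratio in KPC (1.23 ± 1.15 in WT, 1.39 ± 1.37 in Sirpα-/- mice) rest on few counts and only just pass their counting error.

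In irradiated tumors, all 5 genes were higher in Sirpα-/- than in WT mice in MC38 and, as deposited, lower in at least 1 pancreatic model. The difference between MC38 and the mean of Pan02 and KPC was 2.12 for Emr1 and 2.48 for Cx3cr1 and 0.85 for C1qb. That between MC38 and Pan02 was 1.82 for C1qa, and that between MC38 and KPC was 1.70 for Cybb. Under scaling by reference genes, C1qa turned above 0 in both Pan02 (0.02) and KPC (0.09), and C1qb in Pan02 (0.02).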

How the results depend on the processing

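Of the 5 genes, the number that passed after IR in Sirpα-/- tumors (4) was 3 with scaling by reference genes (C1qa, Cybb, Emr1), 1 with the median ratio, with a mean of at least 200 or with the 20th percentile subtracted (C1qa each time), 2 without the non-irradiated KPC samples, and 0 in edgeR, without the tumor model block and in the methods' t-test. It ran from 0 to 4 with a sample or tumor model left out, 1 (C1qa) without irradiated Sirpα-/- MC38, without non-irradiated Sirpα-/- Pan02 or without the MC38 model. MC38 against Pan02 gave 1 (Cx3cr1) without non-irradiated KPC. MC38 against KPC (4) gave 0 with reference genes, median ratio, edgeR and the t-test, 2 without non-irradiated KPC, and 2 to 5 with a sample left out. Pan02 against KPC (5) gave 0 with reference genes, median ratio and edgeR, 3 without non-irradiated KPC and 1 in the t-test. At 2-fold, the median ratio gave 0 for IR in Sirpα-/- Pan02 and 3 for IR in WT KPC. These log2 values changed sign. Without non-irradiated KPC, Cx3cr1 was −0.23 for IR in WT and −0.18 for MC38 against KPC. In edgeR, Cx3cr1 was −0.16 and C1qb −0.0224 for IR in Sirpα-/-, Emr1 −0.18, C1qa −0.10 and Cybb −0.39 for genotype after IR, Cx3cr1 −0.617 and C1qb −0.29 for the difference of the IR effects, and Emr1 0.0227 and C1qa 0.23 for MC38 against Pan02. C1qb for genotype after IR was 0.077 under reference gene and 0.0555 under median ratio scaling, and C1qa for MC38 against Pan02 was 0.0344 with the median ratio. The log2 change of the members' share in WT MC38 was 0.50 over reference genes. With a sample or model left out, Cx3cr1 for IR in WT ran from −0.38 to 2.00. Genotype without IR ran from −1.22 to 0.0414 (Cx3cr1), −0.41 to 0.11 (C1qb) and −1.17 to 0.0635 (Cybb). Genotype after IR ran from −0.54 to 0.56 (Emr1), −1.36 to 0.54 (Cx3cr1), −0.17 to 0.82 (C1qa), −0.36 to 0.15 (C1qb) and −0.40 to 0.71 (Cybb). The difference of IR effects ran from −0.89 to 1.02 (Cx3cr1) and −0.18 to 0.49 (C1qb), and MC38 against Pan02 from −0.71 to 0.14 (Emr1) and −0.35 to 0.29 (C1qa). The cause of these changes was not tested. The tumor model block matched samples of the same model, and without it 63 genes rose after IR in Sirpα-/- tumors in place of 198. The labels carry no replicate numbers for another pairing. Genes higher and lower in that contrast (198 and 1) were 42 and 7 with the median ratio, 7 and 0 at a mean of at least 200, 16 and 0 with the 20th percentile subtracted and 23 and 30 in edgeR. For MC38 against KPC (207 and 11) reference gene scaling gave 10 and 34, median ratio scaling 18 and 33, and edgeR 33 and 26. Counts of 1 to 10 limit Cx3cr1 and Cybb in non-irradiated KPC.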
